A study of Mus musculus with 8 samples.

Results

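The 36 genes described here encode aminoacyl-tRNA synthetases, and they were taken by gene symbol from the 54838 gene identifiers counted in natural killer (NK) cells of mouse spleen. By the naming rule, 16 symbols that end in 2 stand for mitochondrial enzymes and the other 20 for cytosolic enzymes, among them Gars and Kars, whose products serve both compartments. The rule itself reads names and no measured value, although the set was proposed with earlier results of these data known. RNA sequencing gave 4 teNK libraries and 4 hNK libraries. MMTV-PyMT mice, which the series describes as carrying tumours, were the source of the teNK cells, and the hNK cells were those of healthy FVB/n animals of wild type. In MMTV-PyMT mice the mammary tumour virus promoter drives the polyoma middle T oncogene in mammary epithelium. In both groups the spleen cells were sorted as CD45+, CD49b+ and CD3- and kept for 12 to 16 h in medium with added cytokines before RNA was taken. Sources used here do not give the cytokines, the ages, the number of animals behind a library or the strain on which the transgene was bred. They also do not say that the libraries of a group came from separate animals, so every p-value rests on library-to-library spread that may be technical.

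Aminoacyl-tRNA synthetases join each amino acid to its tRNAs before translation. Cytosolic enzymes supply the ribosomes that read nuclear transcripts, and separate nuclear genes encode most of the enzymes that are imported to charge mitochondrial tRNAs. Many cytosolic synthetase genes are known targets of ATF4, the transcription factor of the amino acid response, which binds a composite element together with C/EBP proteins. Several cytosolic enzymes, with the scaffold proteins encoded by Aimp1, Aimp2 and Eef1e1, form the multisynthetase complex. Mitochondria make glutaminyl-tRNA by a detour: the Ears2 product attaches glutamate, which an amidotransferase made of the Qrsl1, Gatb and Gatc products then converts to glutamine.

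Reads assigned to genes numbered 13111043 to 16209895 in the teNK libraries and 5202131 to 12419324 in the hNK libraries. Of 13903 genes tested with edgeR's quasi-likelihood test and Benjamini-Hochberg adjustment over all of them, 3665 were higher and 3557 lower in teNK cells at an adjusted p under 0.05, with a median log2 fold change of -0.02. The NK marker list was detected throughout, with summed levels of 7936 to 8539 CPM (read counts scaled to the total of each library times its TMM factor) in teNK libraries and 3774 to 4471 CPM in hNK libraries, and 9 of its 10 genes were higher and Eomes lower in teNK cells. Markers of other cells moved with the groups too. Platelet markers summed to 226 to 360 CPM in teNK and 100 to 137 CPM in hNK libraries, with 10 of 11 tested higher in teNK cells and Gp1bb, 1 of 12 listed, at 0 in every hNK library. Their median log2 fold change was 3.63. Itgb3, which was not called, averaged 80.8 CPM in teNK and 92 CPM in hNK cells and held most of the hNK sum. B cell markers summed to 142 to 176 CPM in teNK and 88 to 130 CPM in hNK libraries, with 10 of 11 higher in teNK cells and a median log2 fold change of 4.02. Most of the B cell sum in both groups was Ighm, which was not called, at 96.5 CPM in teNK and 95.8 CPM in hNK cells. T cell markers summed to 259 to 275 CPM in teNK and 271 to 312 CPM in hNK libraries, with 1 higher and 1 lower of 6 tested and Cd5 at 0 in every hNK library. Myeloid markers summed to 7.11 to 15.8 CPM in teNK and 0.715 to 1.45 CPM in hNK libraries, with Lyz2 the 1 gene tested, higher in teNK cells, and Ly6g at 0 in all libraries. Erythroid markers reached at most 6.86 CPM in teNK and 0.361 CPM in hNK libraries, with none abundant enough to test and Hba-a2 at 0 in all. The part of these cells in the differences below was not tested. In bulk RNA, fewer cells of a type and less RNA per cell cannot be told apart. The labels speak of 1 library run in several lanes for teNK samples and not for hNK samples, so lane layout and group cannot be told apart.

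The first comparison set teNK against hNK cells for the 20 cytosolic genes. All 20 passed the filter on low counts, 16 were lower in teNK cells, 0 were higher and 4 were not called (edgeR, adjusted p under 0.05). At an unadjusted p under 0.05, and by DESeq2, 0 were higher too. Over all genes tested, 25.6% were called lower and 26.4% higher. In the same 16 genes every teNK library lay below every hNK library, a pattern that 22.4% of all tested genes showed, while 0 of 20 showed the opposite pattern, which 24.1% of all genes did. The median log2 fold change of the 20 genes was -1.30, with a range of -2.71 to 0.09. At least 2-fold lower and called were 12 of the 20 genes, against 5.8% of all tested genes.

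The genes for alanyl- and cysteinyl-tRNA synthetase fell furthest. Aars (ENSMUSG00000031960, GRCm38 chr8:111033144-111057664, plus strand) stood at 44.6, 40.3, 47.3 and 44.9 CPM in teNK libraries 1 to 4 and at 294, 281, 279 and 302 CPM in hNK libraries 1 to 4. No teNK library came near an hNK library, and Aars was 6.53-fold lower in teNK cells (log2 fold change -2.71 ± 0.07 SE, edgeR adjusted p = 1.28e-14). Cars (ENSMUSG00000010755, chr7:143557230-143600090, minus strand) stood at 25.9, 26.4, 23.7 and 23.9 CPM in teNK and at 175, 142, 146 and 164 CPM in hNK libraries. It was 6.26-fold lower in teNK cells (log2 fold change -2.65 ± 0.08 SE, adjusted p = 1.71e-13), again with no overlap. Ordered by log2 fold change from the lowest of the 13903 tested genes, Aars ranked 107 and Cars 113. Exons of Aars share 1326 bases with Exosc6 on the same strand, and reads from that stretch cannot be assigned to either gene alone.

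Isoleucyl-, methionyl-, tyrosyl-, glycyl-, seryl- and leucyl-tRNA synthetase genes followed, between 2.96-fold and 3.89-fold lower in teNK cells. Iars (ENSMUSG00000037851, chr13:49682100-49734267, plus strand) had 68.0, 73.3, 75.2 and 71.5 CPM in teNK and 260, 267, 284 and 311 CPM in hNK libraries, which is 3.89-fold lower in teNK cells (log2 fold change -1.96 ± 0.07 SE, adjusted p = 1.17e-12). Mars (ENSMUSG00000040354, chr10:127296221-127311786, minus strand) had 37.7, 38.2, 38.2 and 36.5 CPM in teNK and 123, 119, 137 and 142 CPM in hNK libraries, which is 3.44-fold lower in teNK cells. Its exons share 68 bases with Ddit3 on the opposite strand, and Ddit3 averaged 21.9 ± 0.882 CPM in teNK and 62.3 ± 7.70 CPM in hNK cells (SD, n = 4 each). Yars, the tyrosine enzyme, had 29.9, 30.1, 30.8 and 28.4 CPM in teNK and 96.2, 103, 95.5 and 117 CPM in hNK libraries, also 3.44-fold lower in teNK cells. In each of these genes all teNK libraries lay below all hNK libraries. Gars, which charges glycine tRNAs in both compartments, had 94.7, 85.2, 92.3 and 99.3 CPM in teNK and 260, 277, 306 and 332 CPM in hNK libraries, 3.16-fold lower in teNK cells. Sars, the serine enzyme, had 101, 96.4, 104 and 102 CPM in teNK and 310, 297, 300 and 307 CPM in hNK libraries, 3.01-fold lower in teNK cells. The leucine enzyme gene Lars had 69.7, 67.8, 74.5 and 74.1 CPM in teNK and 181, 197, 227 and 247 CPM in hNK libraries, 2.96-fold lower in teNK cells. Groups did not overlap in any of these genes, and the edgeR adjusted p ranged over them to 2.08e-10 in Lars at the highest.

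**Figure D1:**
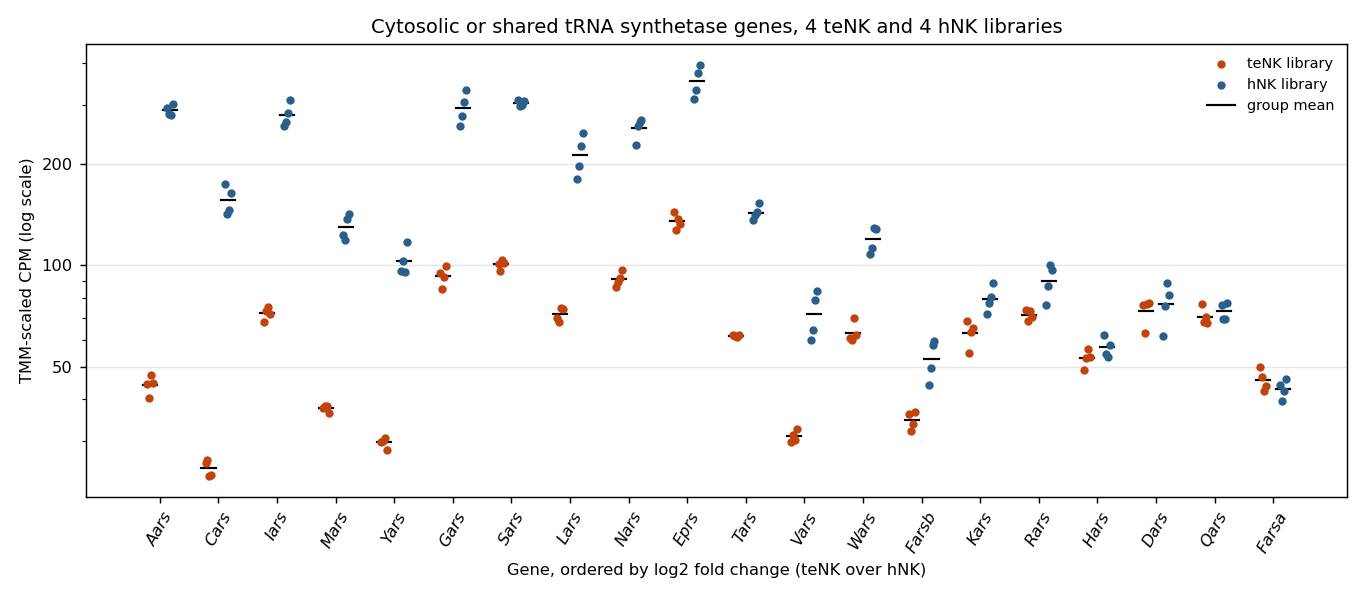
TMM-scaled CPM (log axis) of the 20 cytosolic or shared synthetase genes in each library, ordered by log2 fold change, with points for single libraries (teNK left of hNK) and bars for group means. Aars at the left averaged 44.3 CPM in teNK and 289 CPM in hNK cells, while Dars, Qars, Hars and Farsa at the right have overlapping libraries.

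The remaining called cytosolic genes spanned a wide range of differences. Nars, which charges asparagine tRNAs, averaged 91.0 ± 4.47 CPM in teNK and 256 ± 19.0 CPM in hNK cells (SD, n = 4 each here and below), and Eprs, a fused enzyme for glutamate and proline, averaged 135 ± 6.92 CPM in teNK and 354 ± 37.6 CPM in hNK cells. Tars, the threonine enzyme, averaged 61.8 ± 0.401 CPM in teNK and 144 ± 7.12 CPM in hNK cells. Vars, for valine, averaged 31.0 ± 1.21 CPM in teNK and 71.7 ± 11.4 CPM in hNK cells. These genes all fell, with log2 fold changes of -1.49 for Nars, -1.38 for Eprs, -1.21 for Tars and -1.19 for Vars. Wars, the tryptophan enzyme and a known interferon-inducible gene, fell by 0.91 on the log2 scale, with 63.2 ± 4.46 CPM in teNK and 120 ± 10.7 CPM in hNK cells. The smallest called differences were those of Kars, which charges lysine tRNAs in both compartments, and of Rars, the arginine enzyme. Kars averaged 63.1 ± 5.72 CPM in teNK and 79.6 ± 7 CPM in hNK cells (log2 fold change -0.33 ± 0.08 SE, edgeR adjusted p = 0.00254), and Rars 71.4 ± 2.51 CPM in teNK and 90.1 ± 10.8 CPM in hNK cells (-0.32 ± 0.08 SE, adjusted p = 0.0024).

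Of the 4 genes that were not called, Dars, the aspartate enzyme, averaged 73.4 ± 6.93 CPM in teNK and 76.9 ± 11.4 CPM in hNK cells (log2 fold change -0.06 ± 0.10 SE, edgeR adjusted p = 0.657). Qars, which serves the cytosol, averaged 70.5 ± 4.26 CPM in teNK and 73.0 ± 4.2 CPM in hNK cells (-0.05 ± 0.07 SE, adjusted p = 0.559). Hars, the histidine enzyme, averaged 52.9 ± 3.05 CPM in teNK and 57.2 ± 3.93 CPM in hNK cells (-0.11 ± 0.07 SE, adjusted p = 0.196). The groups overlapped in all of these genes. Phenylalanyl-tRNA synthetase is built from the products of Farsa and Farsb, and their transcripts gave unlike values. Farsa averaged 45.7 ± 3.33 CPM in teNK and 43.1 ± 2.77 CPM in hNK cells (0.09 ± 0.08 SE, adjusted p = 0.342), with overlapping libraries. Farsb fell to 34.7 ± 2.1 CPM in teNK cells, against 52.8 ± 7.25 CPM in hNK cells (-0.59 ± 0.09 SE, adjusted p = 5.28e-05), with no overlap. The difference between the subunits was not tested.

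Members of the multisynthetase complex and the free enzymes both held many genes that were lower in teNK cells. Of 8 complex enzymes, 6 fell and Dars and Qars were not called, and the median of all 8 was -0.86 on the log2 scale. Of the other 12 cytosolic genes, 10 fell, with a median of -1.35. By structural class of the enzymes, 8 of 9 class I genes fell, with a median of -1.57, and 7 of 10 class II genes fell, with a median of -0.90, while Eprs holds domains of both classes. Over all genes tested 25.6% were called lower, with a median of -0.02, and no test was made between these groups of genes.

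Promoter sequences are shown for the 5 cytosolic genes that carry the composite element known to bind ATF4 and C/EBP proteins. Qars, which was not called, and Nars2, which was higher in teNK cells, follow and carry none. Genes without the element also fell: Mars, Sars and Eprs carry none and had log2 fold changes of -1.78, -1.59 and -1.38, against -1.21 for the carrier Tars. RefSeq windows on GRCm38.p6, from 250 bases before to 50 after the annotated start, were matched by symbol for 13 of 20 cytosolic and 14 of 16 mitochondrial genes. Capitals mark TGATGNAA, searched on both strands, and no match shared a base with a match to the other motifs searched. The windows lie at chr8:111033592-111033891, plus strand for Aars, chr13:49681880-49682179, plus strand for Iars, chr6:55037751-55038050, plus strand for Gars, chr15:11399609-11399908, minus strand for Tars, chr4:129189653-129189952, plus strand for Yars, chr9:108507755-108508054, plus strand for Qars and chr7:96951277-96951576, plus strand for Nars2. Each is printed 5′ to 3′ on the strand of its gene.
Aars: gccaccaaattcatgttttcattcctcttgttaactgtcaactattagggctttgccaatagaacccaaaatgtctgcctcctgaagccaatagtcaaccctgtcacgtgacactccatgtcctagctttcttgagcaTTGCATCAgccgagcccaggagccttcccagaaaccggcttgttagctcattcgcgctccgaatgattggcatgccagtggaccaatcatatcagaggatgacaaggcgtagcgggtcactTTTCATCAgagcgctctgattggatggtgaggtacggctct
Iars: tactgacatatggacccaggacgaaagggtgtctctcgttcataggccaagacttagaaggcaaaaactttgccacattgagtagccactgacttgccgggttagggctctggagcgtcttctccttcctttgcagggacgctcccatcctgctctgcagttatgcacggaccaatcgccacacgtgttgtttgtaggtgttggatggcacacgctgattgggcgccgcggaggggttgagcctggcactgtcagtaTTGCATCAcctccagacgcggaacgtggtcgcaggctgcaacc
Gars: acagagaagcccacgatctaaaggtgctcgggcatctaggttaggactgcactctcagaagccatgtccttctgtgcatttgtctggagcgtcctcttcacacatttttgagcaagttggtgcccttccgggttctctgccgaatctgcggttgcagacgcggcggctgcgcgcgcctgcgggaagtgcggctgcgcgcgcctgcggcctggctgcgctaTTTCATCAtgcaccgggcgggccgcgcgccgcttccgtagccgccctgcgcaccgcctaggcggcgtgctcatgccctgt
Tars: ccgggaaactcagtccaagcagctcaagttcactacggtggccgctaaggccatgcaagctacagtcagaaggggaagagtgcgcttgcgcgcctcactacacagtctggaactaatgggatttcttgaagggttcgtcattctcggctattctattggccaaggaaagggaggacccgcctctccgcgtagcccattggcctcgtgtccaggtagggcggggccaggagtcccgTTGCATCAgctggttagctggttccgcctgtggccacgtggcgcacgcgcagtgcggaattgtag
Yars: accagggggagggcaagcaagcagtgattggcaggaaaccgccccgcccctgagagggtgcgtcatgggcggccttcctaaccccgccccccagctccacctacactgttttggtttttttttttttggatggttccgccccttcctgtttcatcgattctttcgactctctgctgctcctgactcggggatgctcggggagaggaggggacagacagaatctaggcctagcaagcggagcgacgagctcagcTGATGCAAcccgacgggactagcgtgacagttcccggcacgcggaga
Qars: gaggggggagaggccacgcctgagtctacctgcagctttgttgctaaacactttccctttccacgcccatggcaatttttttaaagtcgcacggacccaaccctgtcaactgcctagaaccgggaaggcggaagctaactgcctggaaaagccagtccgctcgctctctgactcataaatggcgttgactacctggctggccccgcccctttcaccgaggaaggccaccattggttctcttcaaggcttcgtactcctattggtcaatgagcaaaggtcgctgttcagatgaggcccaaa
Nars2: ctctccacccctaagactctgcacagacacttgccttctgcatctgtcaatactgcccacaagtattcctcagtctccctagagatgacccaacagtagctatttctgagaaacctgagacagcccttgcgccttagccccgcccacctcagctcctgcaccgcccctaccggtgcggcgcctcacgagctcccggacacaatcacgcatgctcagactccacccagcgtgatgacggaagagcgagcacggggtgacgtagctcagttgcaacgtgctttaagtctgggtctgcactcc

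The composite element TGATGNAA was found in 5 of the 13 matched cytosolic genes and in 0 of the 14 matched mitochondrial genes. Of all 32851 RefSeq windows of this length, 3.97% hold it. Aars, which fell furthest, had 2 matches, the first bases of which lie at -112 and 10 relative to the start. The single matches began at -30 in Gars, -15 in Tars, 4 in Yars and 8 in Iars. Each of the 5 genes thus had a match that began between -30 and 10. That stretch was set after the matches were seen, and its share among all windows was not taken. Positions count from the RefSeq start, which for Aars lies inside the gene coordinates given above, so they depend on the annotation. The E-box CACGTG, bound by MYC and related factors, was found in 4 of 13 cytosolic genes (Aars, Farsb, Iars and Tars) and 1 of 14 mitochondrial genes (Ears2), against 7.15% of all windows. The element GCGCANGCG, bound by NRF1, a regulator of nuclear genes for mitochondrial proteins, was found in 3 of 13 cytosolic genes (Farsb, Kars and Tars) and 4 of 14 mitochondrial genes (Iars2, Mars2, Vars2 and Wars2), against 6.25% of all windows. A match is a run of letters and not a measured binding site, and the absence of a match in Eprs, Farsb, Kars, Mars and Sars, which also fell, says only that these letters are not in their windows. Cars, which fell furthest after Aars, is among the genes with no window in the table used. The amino acid response list was already known from earlier results of these data to hold genes that fell, so its count is no support. Of its 17 tested genes, 16 were lower and 0 higher in teNK cells, with a median log2 fold change of -2.47. Over all genes tested, 25.6% were called lower and 26.4% higher. Atf4 itself averaged 207 ± 21.6 CPM in teNK and 384 ± 16.2 CPM in hNK cells (SD, n = 4 each). Whether ATF4 had a part in the synthetase differences was not tested.

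**Figure D2:**
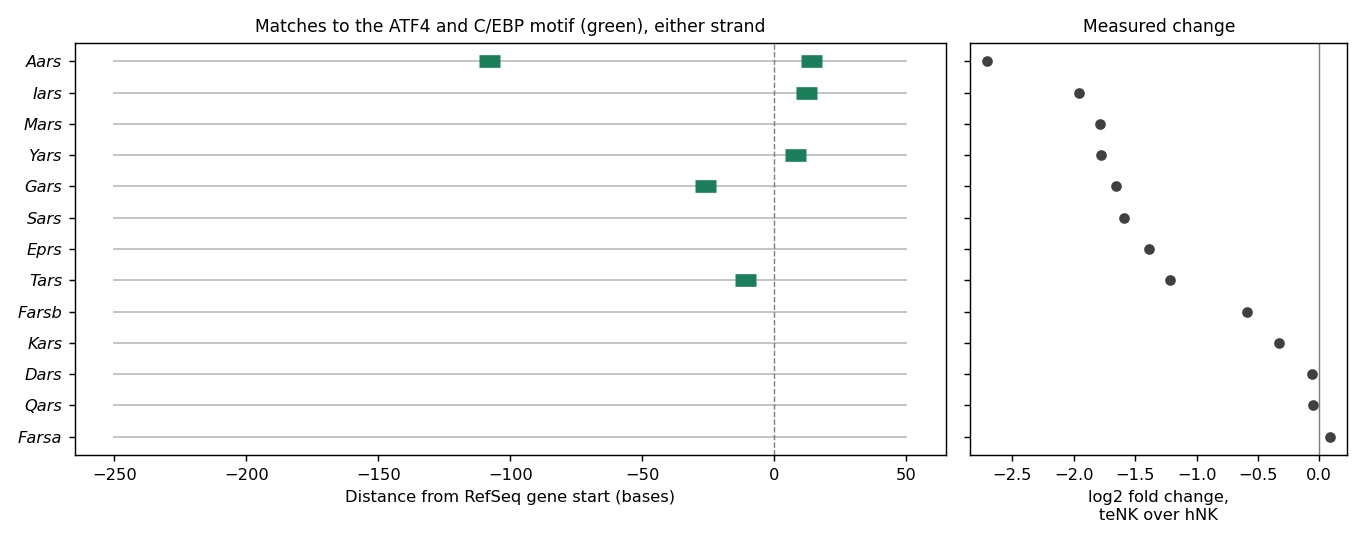
Left, positions of TGATGNAA matches on either strand (green) along the promoter windows, by distance from the RefSeq gene start in bases. Right, the log2 fold change (teNK over hNK) of the same 13 cytosolic genes. Aars has 2 matches and a log2 fold change of -2.71, and Farsa at the bottom has none and a log2 fold change of 0.09. Mars also has none and a log2 fold change of -1.78.

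The same comparison for the 16 mitochondrial genes gave calls in both directions. All 16 passed the filter, 3 were higher (Nars2, Cars2 and Hars2), 3 were lower (Pars2, Ears2 and Mars2) and 10 were not called. Those counts stand beside 26.4% of all genes called higher and 25.6% called lower. Groups did not overlap in 2 genes higher in teNK cells (Nars2 and Cars2) and 3 lower (Pars2, Ears2 and Iars2), beside 24.1% and 22.4% of all genes. The median log2 fold change was -0.15, with a range of -0.79 to 1.35, beside a median of -0.02 over all genes tested. Of the 16 genes, 12 had a log2 fold change below 0, most of them not called, and 0 were at least 2-fold lower and called. Nars2, which charges mitochondrial asparagine tRNAs (ENSMUSG00000018995, chr7:96951505-97064758, plus strand), had 45.3, 54.9, 44.1 and 42.8 CPM in teNK and 17.2, 18.7, 17.5 and 20.2 CPM in hNK libraries. Every teNK library was above the highest hNK library, and Nars2 was 2.56-fold higher in teNK cells (log2 fold change 1.35 ± 0.10 SE, edgeR adjusted p = 5.67e-09). Its exons share 284 bases with C230038L03Rik on the opposite strand.

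The other called mitochondrial genes differed less. Pars2, the proline enzyme, had 3.95, 4.89, 5.22 and 5.73 CPM in teNK and 7.90, 8.73, 6.93 and 10.8 CPM in hNK libraries (log2 fold change -0.79 ± 0.17 SE, edgeR adjusted p = 0.00091). All teNK libraries were below all hNK libraries. Ears2, the glutamate enzyme, had 5.73, 5.08, 4.66 and 4.13 CPM in teNK and 5.82, 7.78, 6.60 and 8.67 CPM in hNK libraries (-0.54 ± 0.17 SE, adjusted p = 0.0146), so that the highest teNK library came close to the lowest hNK library. Without hNK library 2 the Ears2 call was lost (adjusted p = 0.0525). Cars2, the cysteine enzyme, had 29.6, 31.3, 31.7 and 28 CPM in teNK and 26.4, 22.9, 21.3 and 25.1 CPM in hNK libraries (0.33 ± 0.09 SE, adjusted p = 0.00497), with every teNK library above every hNK library. Scaling by total reads in place of TMM ended the Cars2 call (adjusted p = 0.077).

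Mars2 and Hars2 were called although their libraries overlapped. Mars2, the methionine enzyme, had 29.6, 33.9, 27.6 and 28.8 CPM in teNK and 34.4, 32.0, 38.4 and 37.9 CPM in hNK libraries (log2 fold change -0.24 ± 0.09 SE, edgeR adjusted p = 0.0333), where teNK library 2 exceeded hNK library 2. Hars2, the histidine enzyme, had 37.4, 37.6, 41.1 and 33.9 CPM in teNK and 29.5, 30.6, 36.4 and 31.4 CPM in hNK libraries (0.24 ± 0.09 SE, adjusted p = 0.0275), where hNK library 3 exceeded teNK library 4. The Mars2 call held in 8 of 16 alternatives, and leaving out teNK library 1, 3 or 4 or hNK library 3 or 4 gave adjusted p of 0.0773, 0.107, 0.0861, 0.0911 and 0.0789. For Hars2 the call held in 9 of 16, and leaving out teNK library 1 or 3 or hNK library 1, 2 or 4 gave 0.0503, 0.0897, 0.0705, 0.0814 and 0.0502. Hars and Hars2 are neighbours on chromosome 18 that start towards opposite strands, and their exons share 195 bases. How reads from a shared stretch were counted depends on the strand setting, which is not stated. Reads counted as ambiguous were credited to no gene. They made up 1.52% to 1.74% of reads in teNK and 1.85% to 2.07% in hNK libraries.

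**Figure D3:**
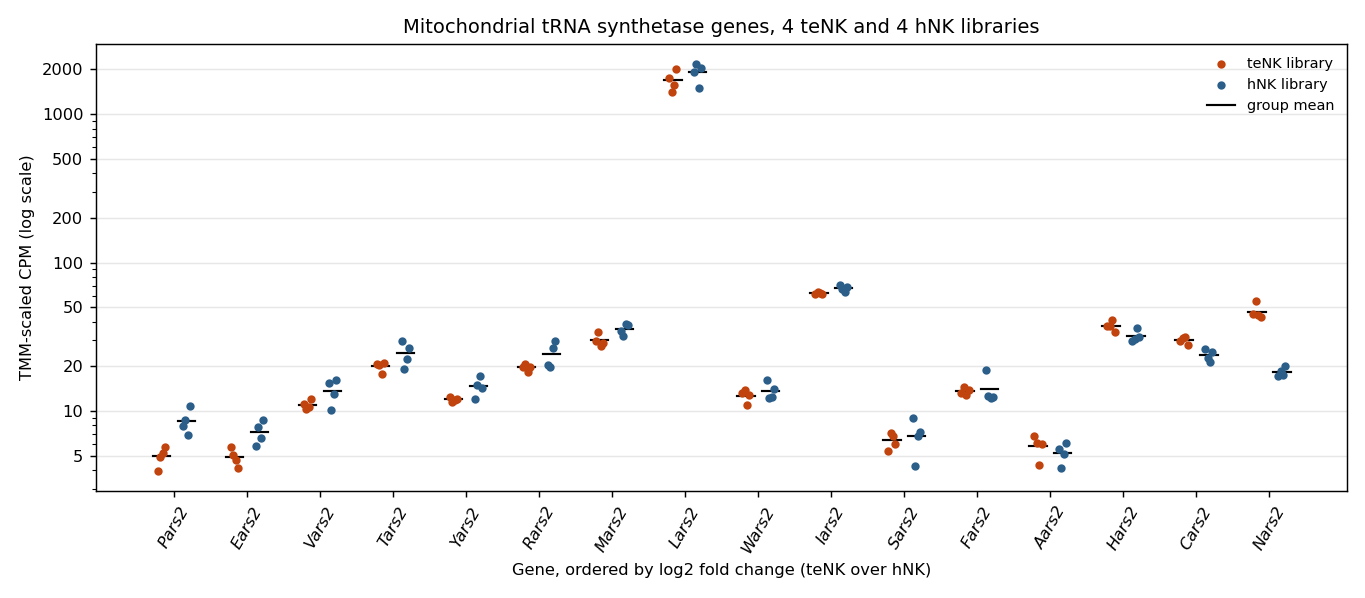
TMM-scaled CPM (log axis) of the 16 mitochondrial synthetase genes in each library, ordered by log2 fold change, with points for single libraries (teNK left of hNK) and bars for group means. Nars2 at the right has all 4 teNK libraries at 42.8 CPM or more and all 4 hNK libraries at 20.2 CPM or less, and Lars2 stands far above the others in both groups.

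Among the 10 mitochondrial genes not called, Vars2 had 11.1, 10.3, 10.6 and 12.0 CPM in teNK and 15.4, 10.2, 13 and 16.1 CPM in hNK libraries (log2 fold change -0.29 ± 0.14 SE, edgeR adjusted p = 0.0894), and Tars2 had 20.9, 20.6, 17.7 and 21.2 CPM in teNK and 29.7, 19.1, 22.4 and 26.6 CPM in hNK libraries (-0.28 ± 0.12 SE, adjusted p = 0.0684). In both genes hNK library 2 was the lowest of its group, and without it both passed the threshold, at 0.00936 for Vars2 and 0.00764 for Tars2. Without hNK library 1, Yars2 passed at 0.0127 and Rars2 at 0.0291, and Rars2 also passed without hNK library 2, at 0.0284. Iars2 averaged 62.2 ± 0.669 CPM in teNK and 67.2 ± 3.12 CPM in hNK cells (SD, n = 4 each), with no overlap but an adjusted p of 0.129. Lars2, the leucine enzyme, had the most reads of the 36 genes, at 1760, 1415, 1564 and 2018 CPM in teNK and 1929, 2167, 1511 and 2038 CPM in hNK libraries (-0.18 ± 0.12 SE, adjusted p = 0.211). Its groups overlapped, and without hNK library 3 the adjusted p was 0.0386. Whether all reads counted for Lars2 came from its own transcript cannot be checked from gene counts, so its level is that of the reads assigned to it. Aars2, Fars2, Sars2 and Wars2 lay between -0.12 and 0.18 on the log2 scale.

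Summed over the 20 cytosolic genes, the libraries held 1284, 1214, 1292 and 1282 CPM in teNK and 2981, 3044, 3259 and 3460 CPM in hNK cells. The 15 mitochondrial genes other than Lars2 summed to 316, 336, 310 and 309 CPM in teNK and 319, 285, 307 and 329 CPM in hNK cells. These sums include Nars2, which averaged 46.8 CPM in teNK and 18.4 CPM in hNK cells. By contrast, 12 of all 16 mitochondrial genes had a log2 fold change below 0. The cytosolic sums did not overlap, at 1268 ± 36.2 CPM in teNK and 3186 ± 218 CPM in hNK cells (SD, n = 4 each), and the mitochondrial sums did. With Lars2 the mitochondrial sums were 2007 ± 252 CPM in teNK and 2221 ± 282 CPM in hNK cells, and they overlapped too.

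**Figure D4:**
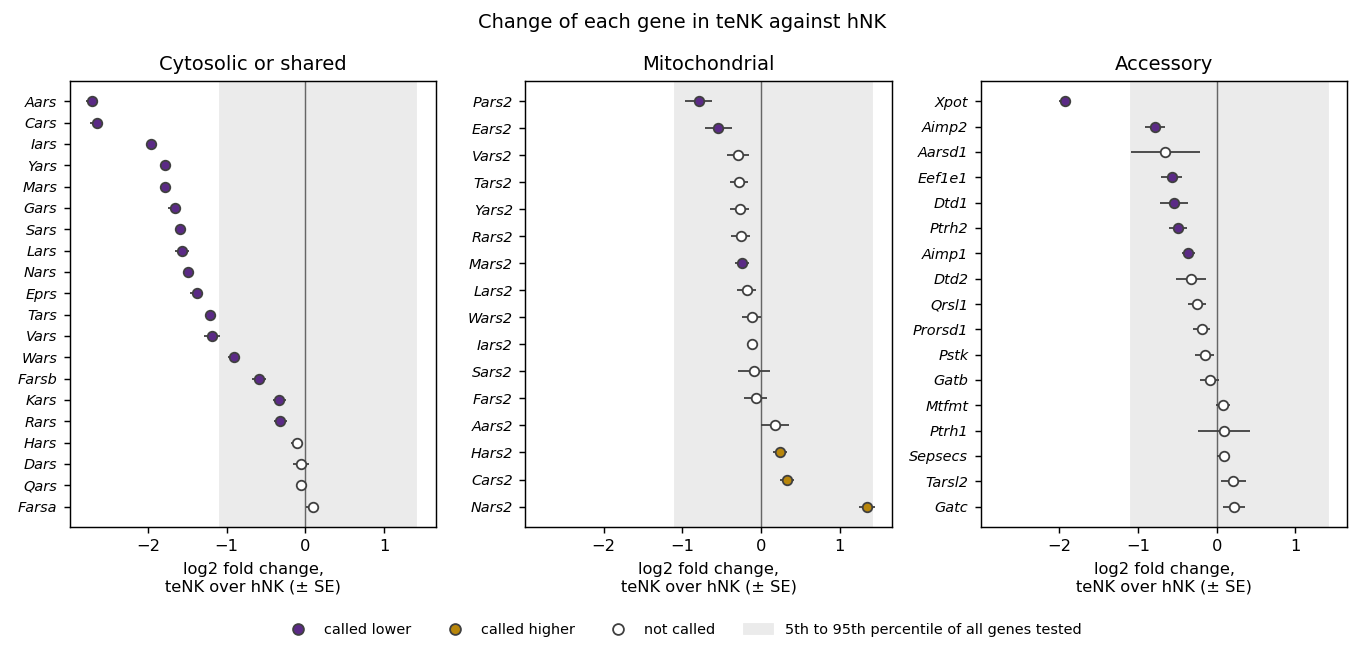
Log2 fold change (teNK over hNK, edgeR) with its standard error for the 20 cytosolic, 16 mitochondrial and 17 accessory genes, filled purple where called lower, filled gold where called higher and open where not called. Grey shading spans the 5th to 95th percentile of all genes tested, -1.09 to 1.41. The cytosolic genes run from -2.71 (Aars) to 0.09 (Farsa) and the mitochondrial genes from -0.79 (Pars2) to 1.35 (Nars2).

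The question whether the cytosolic set moved apart from the mitochondrial set was put to each amino acid within single libraries, where scaling between libraries cancels. For 17 pairs of a cytosolic and a mitochondrial gene for the same amino acid, the log2 ratio of CPM + 0.5 was compared between 4 teNK and 4 hNK libraries by a two-sided exact permutation test, whose smallest possible p is 0.0286. The ratio was lower in teNK cells with no overlap in 13 pairs (exact permutation p = 0.0286 each, 0.0374 after Benjamini-Hochberg adjustment over the 17), and 16 of 17 differences were below 0. Any pair without overlap gets this p, so it adds nothing to the count of such pairs. In each of the 13 the cytosolic gene alone already had every teNK library below every hNK library. The share among other pairs of genes was not taken. Each ratio compares groups only, since it is not set per length between genes, and Eprs and Fars2 each stand in more than 1 pair. For cysteine the ratio of Cars to Cars2 averaged -0.27 ± 0.10 in teNK and 2.69 ± 0.06 in hNK cells (SD, n = 4 each), a difference of -2.95 on the log2 scale. For alanine it averaged 2.84 ± 0.32 in teNK and 5.67 ± 0.18 in hNK cells, a difference of -2.82. For asparagine, where the genes differed in opposite directions, it averaged 0.96 ± 0.20 in teNK and 3.76 ± 0.09 in hNK cells, a difference of -2.80.

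Isoleucine, methionine, serine, tyrosine and leucine pairs had differences of -1.84, -1.52, -1.52, -1.50 and -1.38. Threonine, valine and tryptophan followed at -0.95, -0.90 and -0.81, and Eprs gave -0.87 against Ears2 and -0.65 against Pars2. The 4 pairs whose groups overlapped were Hars with Hars2 (difference -0.34, exact permutation p = 0.0571, adjusted p = 0.0694), Farsb with Fars2 (-0.57, p = 0.114, adjusted p = 0.13), Rars with Rars2 (-0.06, p = 0.571, adjusted p = 0.607) and Farsa with Fars2 (0.10, p = 0.657, adjusted p = 0.657). With so few libraries, a p above the threshold does not show that these ratios were equal.

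**Figure D5:**
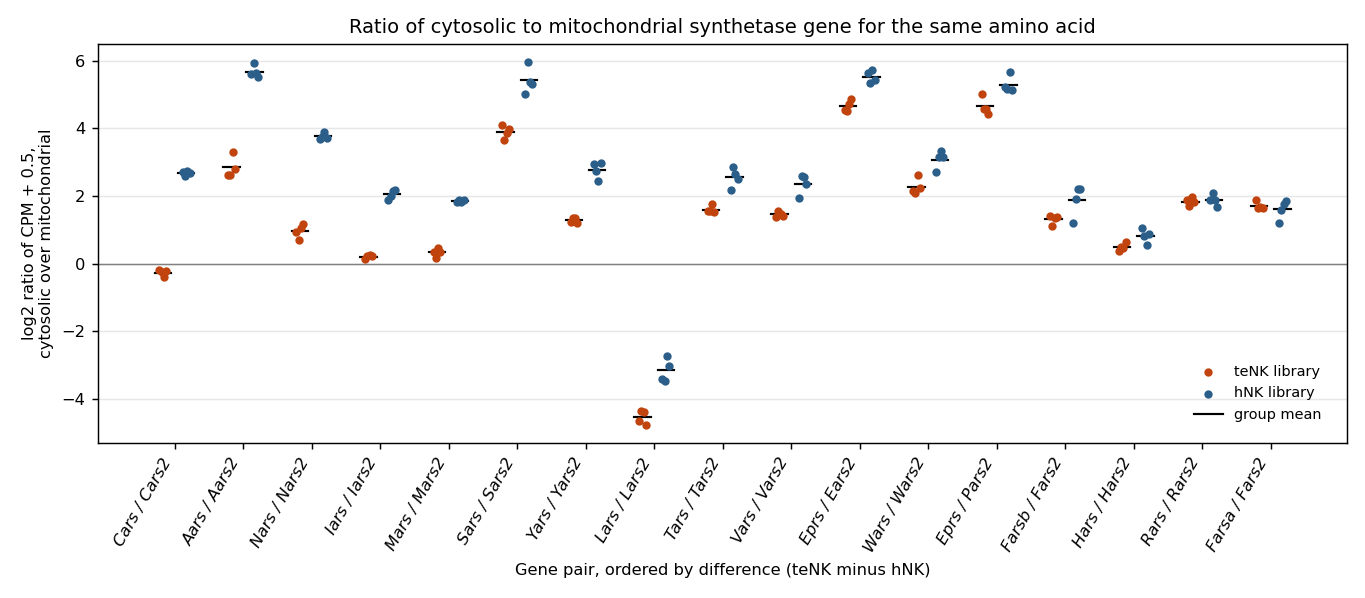
Log2 ratio of the cytosolic over the mitochondrial gene (CPM + 0.5) in each library for the 17 pairs, with teNK points left of hNK points and bars for group means. The teNK points lie below the hNK points in 13 pairs, by 2.95 on the log2 scale for Cars over Cars2, and overlap for Hars over Hars2, Rars over Rars2 and both phenylalanine pairs.

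Levels of different genes were compared per kilobase of merged exon length, as CPM per kilobase. That length joins all annotated exons of a gene (18.1 kb for Eprs), so the order depends on the annotation too. By reads assigned, whose origin was not checked, Lars2 was highest in both groups, at 152 ± 23.5 in teNK and 172 ± 25.6 in hNK cells (SD, n = 4 each), and Gars was next, at 29.8 ± 1.88 in teNK and 94.2 ± 10.3 in hNK cells. The lowest gene was Ears2 in teNK cells, at 0.951 ± 0.131, and Aars2 in hNK cells, at 1.10 ± 0.179. Median levels of the 20 cytosolic genes were 13.3 CPM per kilobase in teNK and 24.1 in hNK cells. For the 16 mitochondrial genes they were 2.77 in teNK and 2.97 in hNK cells. The order changed between groups for the genes that differed most: Aars was number 24 in teNK (4.77) and number 9 in hNK cells (31.1), and Cars number 27 in teNK (3.79) and number 12 in hNK cells (23.8). Nars2 was number 21 in teNK (6.71) and number 30 in hNK cells (2.64). Of the 35 neighbouring pairs in the order, 6 in teNK and 6 in hNK cells had libraries that did not overlap, so most neighbours did not differ beyond their spread.

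Genes that work beside the synthetases were taken as a list of 17. Of these, 6 were lower in teNK cells and 11 were not called, with a median log2 fold change of -0.25. Over all genes tested 25.6% were called lower, with a median of -0.02. Without teNK library 2, hNK library 3 or hNK library 4, 5 were called lower. Xpot, the exporter that carries tRNA out of the nucleus, had 56.1, 59.3, 59.5 and 62.6 CPM in teNK and 212, 215, 245 and 236 CPM in hNK libraries (log2 fold change -1.93 ± 0.07 SE, edgeR adjusted p = 1.05e-12). Its groups were far apart, and it ranked 243 from the lowest log2 fold change of all tested genes. The scaffold genes of the multisynthetase complex fell less, with Aimp1 at 43.7 ± 2.96 CPM in teNK and 56.5 ± 5.29 CPM in hNK cells, Aimp2 at 9.06 ± 0.324 CPM in teNK and 16.0 ± 3.04 CPM in hNK cells, and Eef1e1 at 14.5 ± 1.09 CPM in teNK and 21.8 ± 4.44 CPM in hNK cells (SD, n = 4 each). Dtd1, a proofreading enzyme that removes D-amino acids from tRNA, averaged 5.56 ± 0.41 CPM in teNK and 8.37 ± 2.13 CPM in hNK cells, and Ptrh2, a peptidyl-tRNA hydrolase, 12.0 ± 1.42 CPM in teNK and 17.1 ± 1.89 CPM in hNK cells. The genes of the mitochondrial glutamine amidotransferase, Qrsl1, Gatb and Gatc, were not called. Libraries overlapped in Gatb and Gatc, but every teNK library lay below every hNK library in Qrsl1 (-0.25 ± 0.11 SE, edgeR adjusted p = 0.0745). Of the 17 genes, 7 had that pattern and 0 the opposite one, beside 22.4% and 24.1% of all genes.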

How the data were processed

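The deposited files hold raw read counts per Ensembl gene, 1 file for each of 8 libraries; the authors aligned reads with HISAT2 2.1.0 and used SAMtools and HTSeq on GRCm38, per the submitters' processing notes. The annotation release and the strand setting of the counting are not given in the sources used here. Lines that name no gene stayed out of library sizes and tests, and reads on no feature made up 34.2% to 40.5% of reads in teNK and 32.3% to 41.2% in hNK libraries. Gene identifiers were named from GENCODE M21, which matched 54809 of 54838.

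Counts were filtered with filterByExpr, scaled with TMM and tested with edgeR 4.0.16 in R 4.3.3 by the quasi-likelihood test on group alone, with all 8 libraries and Benjamini-Hochberg adjustment over 13903 genes. The code was tested on simulated data. No 2 libraries of a group agreed within sampling noise. Pair ratios used log2(CPM + 0.5) and SciPy 1.17.1. Alternatives were DESeq2 1.42.0 (test and size factors), limma 3.58.1, total reads without TMM, no filter, a minimum of 20 counts, libraries thinned to 5202131 reads, a replicate block and each library left out. Depth limits the precision of rare genes most, the lowest being Aars2 with 31 reads in hNK library 3.

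The members and lists were chosen with earlier results of these data known. All 36 members are named. Values per library are given for the 8 cytosolic and 6 mitochondrial genes with the largest differences, for called genes whose groups overlap and for Lars2, which was added after its values were seen. Of the accessory genes, up to 6 called ones with the largest differences are named, with Aimp1, Aimp2 and Eef1e1, and 1 gene of the list is not reported here. Qrsl1, Gatb and Gatc were named for their part in making glutaminyl-tRNA, after their values were seen.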

Additional observations from a re-analysis of the deposited data

Results flagged for a closer look

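In 4 of 106 groups of 4 libraries screened over the synthetase and accessory genes, 1 library stood apart from the other 3, where chance gives about 1 in 20. Dars had 63 CPM in teNK library 2, against 76.3 to 77.3 CPM in the other teNK libraries. Eef1e1 had 12.9 CPM in teNK library 2, against 14.9 to 15.2 CPM in the others, and Dtd1 had 4.95 CPM in the same library, against 5.70 to 5.81 CPM. Fars2 had 18.9 CPM in hNK library 1, against 12.2 to 12.7 CPM in the other hNK libraries.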

How the results depend on the processing

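Of 576 gene results under 16 alternatives, 537 kept direction and side of the threshold, 17 lost a call, 17 gained one and 5 changed sign. Of the pair ratios, 51 of 51 results with a test kept both, and 134 of 136 with 1 library left out, which carry no test, kept their direction; Rars to Rars2 gave 0.01 without hNK library 2 and Farsa to Fars2 gave -0.03 without hNK library 1, and neither pair was called. The 16 lower cytosolic genes, Nars2 and Pars2 were called in all 16. Scaling by total reads moved the median of all genes by -0.13 (log2) and the higher share of calls to 34.6%, against 50.7% with TMM. It called 18 cytosolic genes lower, adding Hars (-0.24, edgeR adjusted p = 0.0113) and Qars (-0.18, 0.0373). It gave 1 mitochondrial gene higher and 9 lower, medians of -1.43 (cytosolic) and -0.28 (mitochondrial), and -0.04 for Farsa. Of the mitochondrial genes called lower, leaving out single libraries gave 2 to 5, with 5 without hNK library 1 or hNK library 2 and 2 without teNK library 1, 3 or 4 or hNK library 4; higher genes numbered 2 to 3. Among these omissions, sign changed, without a call, for Dars (0.02 without teNK library 2 or hNK library 3, lowest -0.15), Fars2 (0.13 without hNK library 1, lowest -0.14) and Sars2 (0.13 without hNK library 1, lowest -0.30). Deviations of log CPM from the group mean correlated between same-numbered teNK and hNK libraries at 0.045, -0.107, 0.145 and 0.0182. In these deviations 3 of 8 libraries correlated best with their own number. The values show no clear pairing by number but cannot exclude one. The replicate block called 3581 genes higher and 3401 lower and 16 cytosolic genes lower. Of the synthetase calls it ended that of Mars2 (edgeR adjusted p = 0.0527). Thinning all libraries to 5202131 reads ended the calls of Mars2 (log2 fold change -0.22, adjusted p = 0.133) and Hars2 (0.19, 0.139), added those of Rars2 (-0.35, 0.0493) and Yars2 (-0.49, 0.0105) and left those of Pars2 and Ears2 in place.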
